A study of Homo sapiens with 18 samples.

Results

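The comparison set 3 libraries of A549 cells given a control siRNA against 3 libraries of MDA-MB-231 cells given a control siRNA. These are 6 of the 18 libraries of a series that measured gene expression by RNA sequencing after depletion of the helicase BLM. Genes entered the comparison when they reached a CPM (a count scaled to the library total) of 1 in at least 3 of the 6 libraries, which 14146 of the 27968 genes in the files did. A549 is a lung adenocarcinoma line that carries an inactivating mutation of KEAP1. MDA-MB-231 is a breast cancer line that lacks oestrogen receptor. Each is 1 established line, so the values describe these lines and not lung and breast cancer at large. Both were grown in medium with 10% serum and transfected with siRNA, so the control libraries carry a transfection too. The labels mention flat culture and 3D culture at day 4 without tying either to a library. Whether the 3 libraries of a line came from separate cultures is not stated, so p-values measure a spread that may be technical. Line, culture and preparation cannot be told apart.

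A cancer line keeps part of the transcription factor set of the tissue it came from, and its HOX genes, which encode position along the body axis, often stay fixed in culture. NRF2, the product of NFE2L2, is a transcription factor that KEAP1 marks for destruction. When KEAP1 fails, NRF2 accumulates without a change in its mRNA and switches on genes of glutathione and thioredoxin metabolism, NADPH supply and detoxification. Epithelial cells hold together through E-cadherin and tight junctions, and the factors of the ZEB, SNAI and TWIST families repress that program in epithelial to mesenchymal transition (EMT).

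Library totals were 38883966 to 40328208 expected counts in A549 and 30143047 to 35599976 in MDA-MB-231. In A549 5.64% to 6.05% of counts came from the top 10 genes, and in MDA-MB-231 3.93% to 4.20%, so depth and composition moved with the line. Their part in the results was not tested. BLM, the target of the series, stood at 70.1 to 79.1 CPM in A549 control libraries and 32.5 to 34.9 CPM in MDA-MB-231 control libraries. It was at 1.24 to 10.98 CPM in the 9 A549 libraries and at 5.22 to 5.41 CPM in the 3 MDA-MB-231 libraries given BLM siRNAs.

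The lines differed across much of the transcriptome. With a call set at an adjusted p under 0.05 and a log2 fold change of at least 1 in size (edgeR quasi-likelihood test, Benjamini-Hochberg over all genes tested), 2523 genes were higher in A549 and 3053 were lower. That is 17.8% and 21.6% of the genes tested, and 39.4% in either direction. These shares are the background for every list of genes named here. Without a minimum fold change 83.5% of genes passed, 41.7% higher and 41.8% lower in A549, so an adjusted p alone separated few genes from the rest. With a minimum log2 fold change of 2 the shares were 7.57% and 11.6%. The median log2 fold change of all genes tested was -0.001. In all, 787 tested genes were under 1 CPM in all 3 MDA-MB-231 libraries and 1102 in all 3 A549 libraries. Such genes entered the test only through the line in which they were high, so counts of tested members are given as a description. All fold changes are A549 over MDA-MB-231 from TMM-scaled counts, given on the log2 scale with their standard errors. Levels are deposited TPM, which are scaled to gene length. On log2 of TPM plus 1 the median of all genes was -0.23, so ratios of TPM run slightly below the fold changes. On that scale limma called 1521 genes higher and 3253 lower in A549, and 31.86% of calls were higher in place of 45.25%.

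The largest differences were between strong expression and near silence. ALDH1A1, which oxidises retinal and other aldehydes, had 5198, 4972 and 4708 TPM in the A549 libraries and 0.06, 0.03 and 0.09 TPM in MDA-MB-231. The MDA-MB-231 libraries held 6 ALDH1A1 counts in all, which makes A549 98768-fold higher with a 95% counting interval of 45378 to 269138. UCHL1, a neuronal ubiquitin hydrolase, averaged 767 TPM in A549 and 0.067 TPM in MDA-MB-231, where it had 3 counts. PRAME, a tumour antigen normally made in testis, averaged 170.2 TPM in A549 and had 1 count in MDA-MB-231. In the other direction MMP1, the interstitial collagenase, had 0.28, 0.20 and 0.11 TPM in A549 and 3528, 3769 and 3795 TPM in MDA-MB-231 (log2 fold change -13.95 ± 0.14, adjusted p 3.93e-15). Among genes called lower in A549, MMP1 was second in MDA-MB-231 TPM after S100A6, a calcium-binding protein at 2010.0 TPM in A549 and 5181 TPM in MDA-MB-231 (-1.11 ± 0.07). Among genes called higher in A549, the ribosomal RNA gene RNR2 had the highest TPM there, and FTL was second. RNR2 averaged 21033 TPM in A549 and 9784 TPM in MDA-MB-231, and the lines overlapped for it over all 18 libraries. RPS19, a ribosomal protein gene, was also among the 10 highest, at 5467 TPM in A549 and 1765 TPM in MDA-MB-231. ADGRF5, an adhesion G protein-coupled receptor of lung and endothelium, had 0 counts in all 3 A549 libraries and averaged 334 TPM in MDA-MB-231. Against a floor of 3 counts per library ADGRF5 was at least 11530-fold lower in A549.

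**Figure D1:**
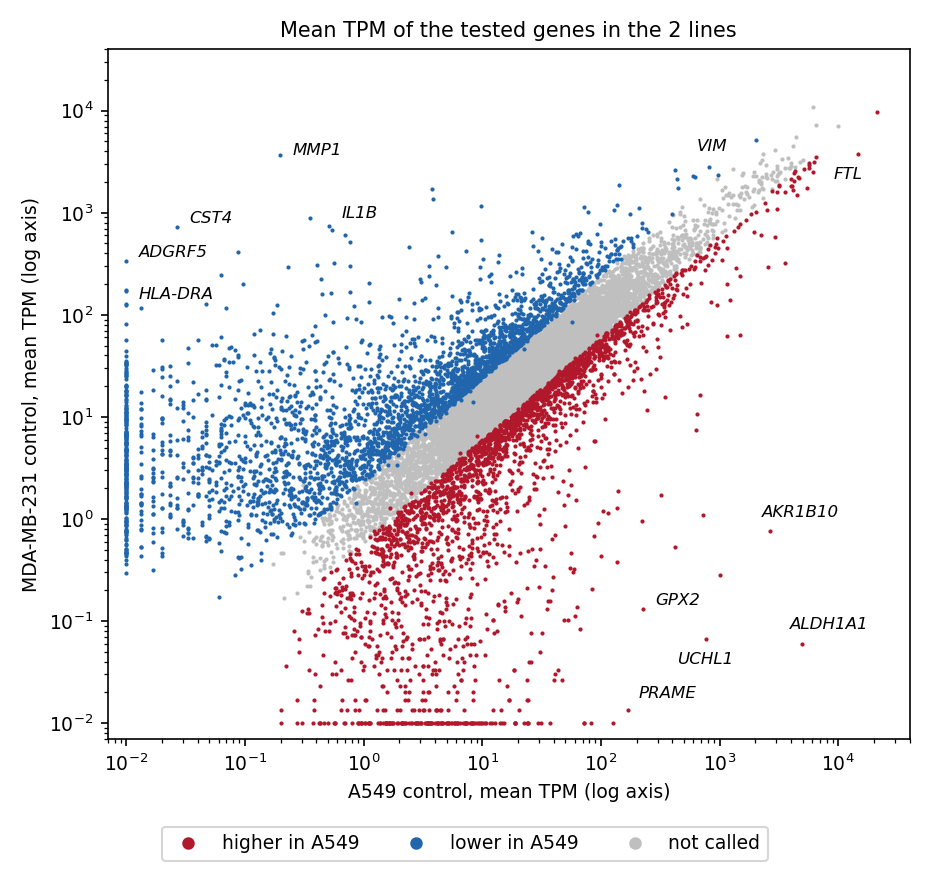
Mean TPM of 14133 tested genes in A549 control (horizontal, log axis) against MDA-MB-231 control (vertical, log axis), n = 3 libraries each. Means under 0.01 are drawn at 0.01, and XIST and Y-linked genes are left out. Genes higher in A549 lie below the diagonal and genes lower in A549 above it, with ALDH1A1 and AKR1B10 at the lower right and MMP1, CST4 and ADGRF5 at the upper left.

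Lineage factors did not divide by tissue label. Of 45 developmental transcription factors on the list 35 were tested, 14 were higher in A549 and 13 were lower, with a median log2 fold change of 0.54. NKX2-1, which specifies lung and thyroid epithelium, had 0, 0.02 and 0 TPM in A549 and 6.79, 6.15 and 7.35 TPM in MDA-MB-231. A549 held 1 NKX2-1 count in all, and the 12 A549 libraries did not overlap the 6 of MDA-MB-231. The endoderm factor HNF4A, which acts in liver, gut and kidney, was higher in A549. It averaged 7.45 TPM in A549 and 0.07 TPM in MDA-MB-231 (7.09 ± 0.18). GATA6, a factor of lung and gut endoderm, averaged 2.06 TPM in A549 and 17.2 TPM in MDA-MB-231 (-2.79 ± 0.13), while FOXA2, a forkhead factor of the same tissues, differed by less than the threshold (24.2 and 44.2 TPM, -0.61 ± 0.08).

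Factors tied to breast epithelium also crossed the labels. FOXA1, a pioneer factor of luminal breast cells, averaged 13.8 TPM in A549 and 2.87 TPM in MDA-MB-231 (2.53 ± 0.11). TBX3, a T-box factor of mammary development, averaged 24.1 TPM in A549 and had 1 count in MDA-MB-231. SPDEF, an ETS factor of secretory cells, went the other way with 2.28, 1.60 and 2.47 TPM in A549 and 67.9, 65.3 and 55.1 TPM in MDA-MB-231 (-4.63 ± 0.14). GATA3 was low in both, at 2.70 TPM in A549 and 1.98 TPM in MDA-MB-231, and differed by less than the threshold (0.71 ± 0.14). Among factors of migratory and skeletal cells, RUNX2 averaged 1.01 TPM in A549 and 19.3 TPM in MDA-MB-231 (-3.97 ± 0.13), and ETS1 averaged 31.9 TPM and 215 TPM in the same order (-2.49 ± 0.07).

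The surfactant genes SFTPA1, SFTPA2, SFTPB, SFTPC and SFTPD were listed as markers of alveolar type 2 cells. They averaged at most 0.10 TPM in A549 and at most 0.0633 TPM in MDA-MB-231, and none was tested. Of 13 alveolar type 2 markers 5 were tested, 0 were higher in A549 and 2 were lower. The median of the tested markers was -0.63. The list summed to 67.3 to 73.0 TPM in A549 and 187 to 199 TPM in MDA-MB-231, and most of each sum was LPCAT1 and ETV5. ETV5 averaged 31.3 TPM in A549 and 54.6 TPM in MDA-MB-231 (-0.54 ± 0.07), below the threshold. LPCAT1, which makes surfactant phospholipid and is also active in other cells, averaged 28.1 TPM in A549 and 118 TPM in MDA-MB-231 (-1.80 ± 0.07), although the lines overlapped over all 18 libraries. The oestrogen receptor ESR1 averaged 0.23 TPM in A549 and 0.25 TPM in MDA-MB-231, and the progesterone receptor PGR had 0 TPM in A549 and 0.10 TPM in MDA-MB-231. Neither reached the level for testing. Of 18 basal and myoepithelial breast markers 12 were tested, 2 were higher in A549 and 4 were lower, and the list summed to 423 to 483 TPM in A549 and 875 to 1005 TPM in MDA-MB-231. The basal keratin KRT5 had 1 count in A549 and 0 in MDA-MB-231, and its partner KRT14 had 0 counts in A549 and 2.09 TPM in MDA-MB-231. The oxytocin receptor OXTR, a myoepithelial gene, averaged 5.59 TPM in A549 and 0.99 TPM in MDA-MB-231 (2.80 ± 0.13). Of 21 luminal breast markers 15 were tested, 7 were higher in A549 and 3 were lower. The list summed to 5777 to 6118 TPM in A549 and 2241 to 2541 TPM in MDA-MB-231. Most of the A549 sum was KRT8 and KRT18, keratins of simple epithelia whose levels are given below. The other members together summed to less in A549 than in MDA-MB-231. Of 9 alveolar type 1 markers 5 were tested, 1 was higher in A549 and 1 was lower. That list summed to 509 to 600 TPM in A549 and 491 to 530 TPM in MDA-MB-231. GPRC5A was the higher one, at 275 TPM in A549 and 121 TPM in MDA-MB-231 (1.44 ± 0.08). RTKN2 was the lower one, at 2.55 and 7.52 TPM (-1.01 ± 0.14). AGER, also weakly expressed elsewhere, averaged 1.95 TPM in A549 and 3.64 TPM in MDA-MB-231 (-0.68 ± 0.20), below the threshold. The surfactant genes were thus at or near 0 in the lung line, and the hormone receptor genes ESR1 and PGR in the breast line.

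The tested secretory epithelial genes were more often lower in A549. Of 22 airway and goblet cell genes 10 were tested, 2 were higher in A549 and 6 were lower, with a median of -3.21. The other 12 did not reach the level for testing. Among these, the secretoglobin genes SCGB1A1, SCGB3A1 and SCGB3A2 had 0 counts in both lines, as did MUC21 and BPIFA1. The trefoil peptide gene TFF2, which protects mucosal surfaces, had 0 counts in A549 and 136, 128 and 120.4 TPM in MDA-MB-231, so it was at least 419-fold lower in A549. TFF3 likewise had 0 counts in A549, and TFF1 averaged 7.80 TPM in A549 and 162 TPM in MDA-MB-231 (-4.12 ± 0.11). LCN2, an iron-scavenging lipocalin, averaged 4.06 TPM in A549 and 198 TPM in MDA-MB-231 (-5.35 ± 0.10). The membrane mucin MUC13 went the other way, at 6.93 TPM in A549 and 0.057 TPM in MDA-MB-231, where it had 7 counts.

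Most tested HOX genes were higher in A549. Of 39 HOX genes 26 were tested, 22 were higher in A549 and 3 were lower, against 17.8% and 21.6% of all genes. The median log2 fold change was 4.67 with genes at 0 counts set to their bounds. Because 15 of the 39 had 0 counts in MDA-MB-231 and 4 in A549, many passed the filter through 1 line. In the HOXA cluster HOXA3 had 9.09, 8.85 and 9.79 TPM in A549 and 0 counts in MDA-MB-231, at least 167-fold higher. The values hardly varied between replicates and the lines did not overlap. HOXA2 and HOXA4, its neighbours on chromosome 7, also had 0 counts in all 3 MDA-MB-231 libraries. HOXA5 and HOXA7 averaged 6.02 and 4.38 TPM in A549 and had 1 count each in MDA-MB-231. In the HOXB cluster HOXB7 averaged 20.9 TPM in A549 and 0.46 TPM in MDA-MB-231 (5.74 ± 0.16). HOXB9 was the exception there, with 13.7 TPM in A549 and 21.9 TPM in MDA-MB-231 (-0.41 ± 0.08), below the threshold and with overlap over all 18 libraries. HOXC9 averaged 10.1 TPM in A549 and 0.473 TPM in MDA-MB-231 (4.65 ± 0.20). The HOXD cluster went both ways. HOXD8 averaged 6.14 TPM in A549 with 0 counts in MDA-MB-231, at least 60.5-fold higher, and HOXD10 averaged 1.77 TPM with 0 counts, at least 16.8-fold higher. The 3 genes lower in A549 were all at the front of the same cluster. HOXD1 averaged 0.12 TPM in A549 and 5.26 TPM in MDA-MB-231 (-5.13 ± 0.25), HOXD4 averaged 0.463 and 4.11 TPM (-2.87 ± 0.23), and HOXD3 had 0 counts in A549. Whether reads were counted by strand is not given in the sources used here, and HOX clusters hold antisense genes, so values of single HOX genes are uncertain.

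**Figure D2:**
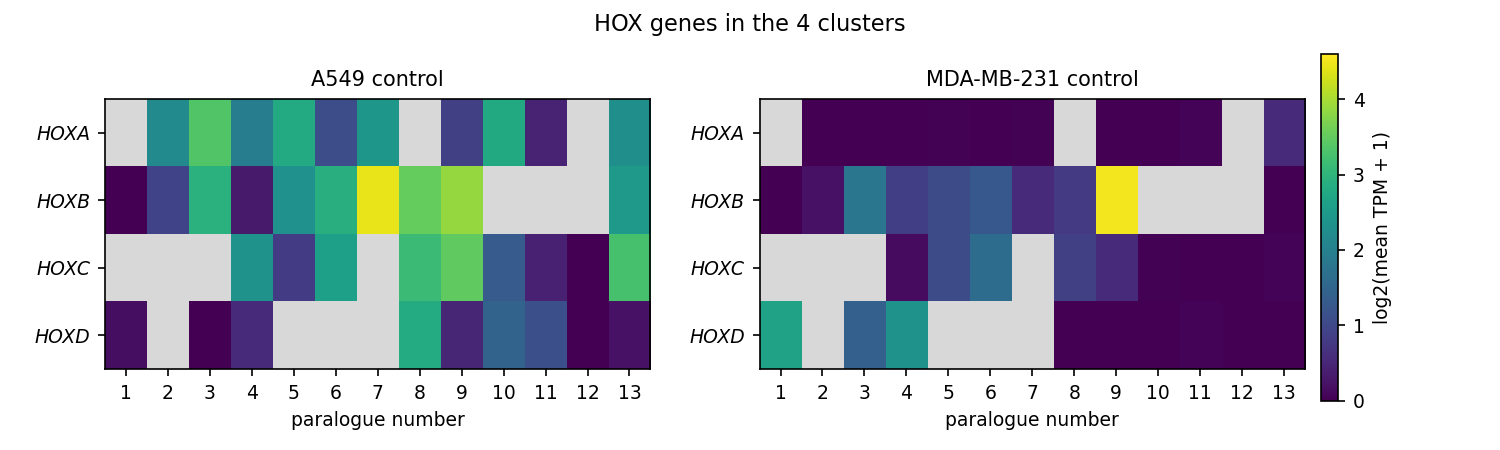
Mean TPM of HOX genes as log2(mean TPM + 1), by cluster (rows) and paralogue number (columns), in A549 control on the left and MDA-MB-231 control on the right, n = 3 libraries each; grey cells mark paralogues that do not exist or are not shown. The HOXA row is filled in A549 and near empty in MDA-MB-231, and HOXD1, HOXD3 and HOXD4 are filled in MDA-MB-231.

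Keratins, the intermediate filaments of epithelia, were more often higher in A549. Of 20 keratin genes 12 were tested, 6 were higher in A549 and 3 were lower, with a median of 1.08. KRT7 had 3293, 3588 and 3847 TPM in A549 and 342, 310.5 and 322 TPM in MDA-MB-231 (3.72 ± 0.08). The simple epithelial pair KRT8 and KRT18 averaged 2224 and 2946 TPM in A549 and 608 and 583 TPM in MDA-MB-231 (2.13 ± 0.08 and 2.59 ± 0.10). KRT19 ran against its partners with 61.1 TPM in A549 and 614 TPM in MDA-MB-231 (-3.07 ± 0.07). KRT81, a hair keratin that shares sequence with KRT86, averaged 2533 TPM in A549 and 294 TPM in MDA-MB-231 (3.37 ± 0.07).

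Most NRF2 target genes were higher in A549, while KEAP1 and NFE2L2 mRNA differed little. Of 17 regulators of the pathway, all tested, 4 were higher and 4 were lower. KEAP1 had 44.7, 46.7 and 50.5 TPM in A549 and 70.8, 68.2 and 57.8 TPM in MDA-MB-231, with a log2 fold change of -0.21 ± 0.09 (adjusted p 0.0481). That p passed 0.05 narrowly, the size was far under the threshold, and it did not pass without A549 replicate 1, 2 or 3 or without MDA-MB-231 replicate 1 or 2 (log2 fold changes -0.164, -0.226, -0.252, -0.153 and -0.164). NFE2L2 had 95.4, 91.3 and 90.2 TPM in A549 and 95.2, 101 and 111 TPM in MDA-MB-231 (0.12 ± 0.07, adjusted p 0.129), and its sign turned on TPM. CUL3, the ligase scaffold that works with KEAP1, averaged 43.9 TPM in A549 and 40.5 TPM in MDA-MB-231 (0.37 ± 0.06). BACH1, a repressor that competes with NRF2 at its sites, was called lower, with 12.3, 11.1 and 13.5 TPM in A549 and 59.9, 56.8 and 77.1 TPM in MDA-MB-231 (-2.13 ± 0.11, adjusted p 1.12e-09). The small MAF protein genes, whose products pair with NRF2, were uneven: MAFF averaged 6.24 and 69.4 TPM in A549 and MDA-MB-231 (-3.19 ± 0.11), and MAFG averaged 50.1 and 43.5 TPM (0.47 ± 0.07).

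NRF2 binds the antioxidant response element, searched for here as TGACNNNGC on both strands of RefSeq promoters (GRCh38.p14, 250 bases before to 50 after the start). The element was in 13.58% of all 27195 promoters. Of the 57 genes on the 3 target lists 44 had a promoter in the table and 13 of these held it, or 29.55%. Among those called higher in A549 it was 12 of 35, or 34.29%. It was in 1 of 4 not called and 0 of 1 called lower, too few to compare the share between directions. Copies that read TGACTCAGC also contain the AP-1 element TGACTCA, so a match does not name the factor. The sequences that follow show the element in capitals, on the gene's strand, in 6 target genes whose levels are described next. They lie at chr14:64942834-64942892 for GPX2 and chr1:93909431-93909489 for GCLM, both on the minus strand. TXNRD1 lies at chr12:104215655-104215713, GSTP1 at chr11:67583721-67583779 and SLC3A2 at chr11:62881637-62881695, all on the plus strand, and ME1 at chr6:83431155-83431213 on the minus strand. In GPX2 and GCLM the element is on the opposite strand and reads as its reverse complement. A match describes these letters and is not a measured binding site.
GPX2: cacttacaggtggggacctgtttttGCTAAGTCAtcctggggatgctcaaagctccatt
GCLM: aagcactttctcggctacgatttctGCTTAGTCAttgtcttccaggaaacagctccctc
TXNRD1: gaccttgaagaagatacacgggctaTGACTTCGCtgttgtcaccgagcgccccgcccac
GSTP1: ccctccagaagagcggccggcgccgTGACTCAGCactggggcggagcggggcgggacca
SLC3A2: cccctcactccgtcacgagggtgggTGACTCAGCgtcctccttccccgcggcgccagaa
ME1: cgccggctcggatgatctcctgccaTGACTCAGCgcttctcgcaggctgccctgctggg

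Of 17 glutathione and thioredoxin genes 16 were tested, 13 were higher in A549 and 1 was lower, with a median log2 fold change of 1.50. GPX2, a glutathione peroxidase of gut epithelium, had 257, 183 and 241 TPM in A549 and 0.15, 0.08 and 0.16 TPM in MDA-MB-231, where it had 6 counts in all. Its ratio was 1887 with a 95% counting interval of 866.6 to 5142. GCLC and GCLM form the enzyme that starts glutathione synthesis. GCLC averaged 187 TPM in A549 and 22.8 TPM in MDA-MB-231 (3.3 ± 0.08), and GCLM averaged 75.7 and 32.2 TPM (1.50 ± 0.13). The cystine importer genes SLC7A11 and SLC3A2 were higher by 1.50 ± 0.14 and 1.53 ± 0.09, at 63.6 and 433 TPM in A549 and 27.2 and 180.4 TPM in MDA-MB-231. Thioredoxin reductase TXNRD1 averaged 1055 TPM in A549 and 347 TPM in MDA-MB-231 (1.86 ± 0.06), and GSTP1, which conjugates glutathione to electrophiles, averaged 952 and 125 TPM (3.19 ± 0.07). GSTM3 was the member called lower, with 5.46 TPM in A549 and 24.6 TPM in MDA-MB-231 (-1.91 ± 0.09). Over all 18 libraries, which include BLM siRNAs, GCLM, TXNRD1, SLC7A11 and SLC3A2 overlapped between the lines, while GPX2, GCLC and GSTP1 did not.

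The NADPH-producing and carbon metabolism genes were higher in 8 of 10 cases, and 0 were lower, with a median of 2.37. PGD, an NADPH-producing enzyme of the pentose phosphate pathway, averaged 1218 TPM in A549 and 139 TPM in MDA-MB-231 (3.39 ± 0.07), TKT averaged 1368 and 288 TPM (2.51 ± 0.06) and malic enzyme ME1 averaged 54.1 and 13.7 TPM (2.25 ± 0.08). TALDO1 differed by less than the threshold (0.75 ± 0.08).

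Of 30 detoxification genes 27 were tested, 24 were higher in A549 and 0 were lower, with a median of 2.90. Their summed level was 29610 to 31450 TPM in A549 and 6904 to 7402 TPM in MDA-MB-231, with ferritin chains FTL and FTH1 as the largest parts. AKR1B10, an aldo-keto reductase that clears retinal and lipid aldehydes, had 2888, 2613 and 2524 TPM in A549 and 0.80, 0.64 and 0.83 TPM in MDA-MB-231 (12.04 ± 0.12, adjusted p 3.55e-15). The steroid-reducing AKR1C genes were also higher, AKR1C1 by 4.73 ± 0.11, AKR1C2 by 9.56 ± 0.15 and AKR1C3 by 4.81 ± 0.09. These 3 are near-identical copies between which RSEM divides reads, so the share of each is uncertain. NQO1, a quinone reductase and standard NRF2 readout, averaged 1498 TPM in A549 and 241 TPM in MDA-MB-231 (2.90 ± 0.07). FTL, the ferritin light chain, averaged 14767 TPM in A549 and 3735 TPM in MDA-MB-231 (2.24 ± 0.07). The export pump ABCC2 averaged 222 TPM in A549 and 0.96 TPM in MDA-MB-231 (8.11 ± 0.11). NR0B1, an orphan nuclear receptor gene that KEAP1-mutant lung cancers are known to express, had 30.1, 30.1 and 33.0 TPM in A549 and 0 counts in MDA-MB-231, at least 254-fold higher. HMOX1, the haem oxygenase that BACH1 represses, averaged 88.7 TPM in A549 and 16.7 TPM in MDA-MB-231 (2.67 ± 0.08), with overlap between the lines once the BLM siRNA libraries were counted.

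**Figure D3:**
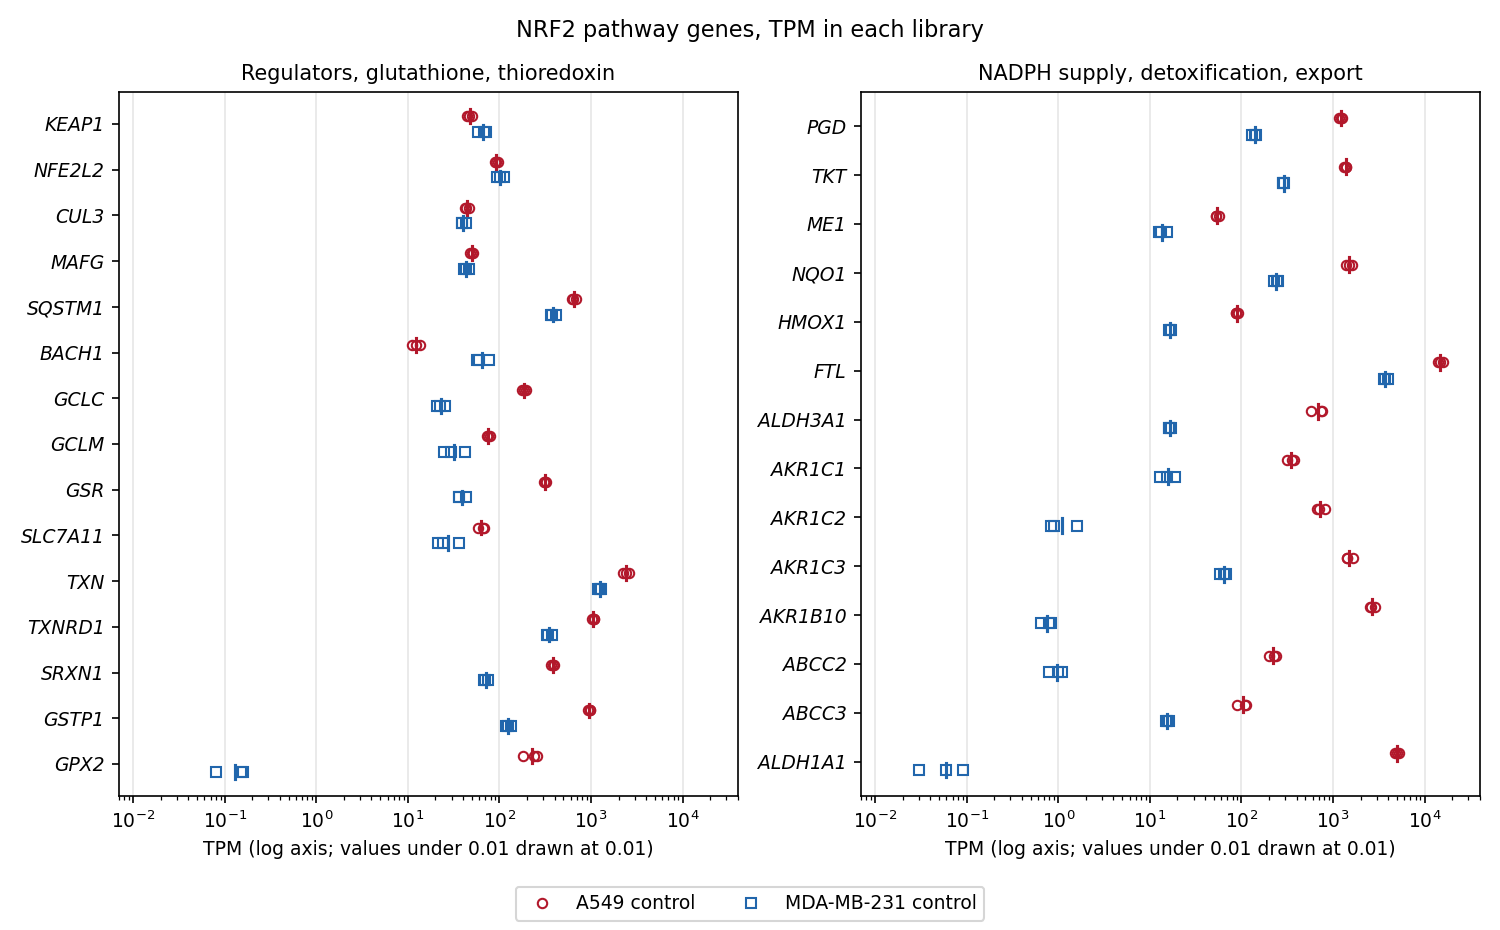
TPM (log axis) of NRF2 regulators and of genes on the 3 target lists, with ALDH1A1, in each of the 3 A549 control libraries (circles, upper row of a gene) and the 3 MDA-MB-231 control libraries (squares, lower row); vertical ticks are means. KEAP1, NFE2L2, CUL3 and MAFG lie close together, BACH1 is lower in A549, and the genes from GCLC downwards and in the right panel lie to the right in A549.

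Of 16 tested aldehyde dehydrogenase genes, ALDH1A1 among them, 7 were higher in A549 and 1 was lower, with a median of 0.86. ALDH3A1 averaged 687 TPM in A549 and 16.4 TPM in MDA-MB-231 (5.62 ± 0.10), and the mitochondrial enzyme ALDH2 averaged 96.2 and 45.8 TPM (1.33 ± 0.07). ALDH1A3, another retinal dehydrogenase, averaged 31.2 TPM in A549 and 55.2 TPM in MDA-MB-231 (-0.57 ± 0.07), below the threshold.

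Epithelial and mesenchymal genes did not line up as opposite programs. Of 40 junction genes 32 were tested, 9 were higher in A549 and 10 were lower, with a median of -0.23. CDH1, which encodes E-cadherin, had 19.6, 15.6 and 17.8 TPM in A549 and 2.14, 1.62 and 2.04 TPM in MDA-MB-231 (3.45 ± 0.11, adjusted p 1.79e-11). The control groups did not overlap, but the lines did once libraries given BLM siRNAs were counted. The claudins, which seal tight junctions, were divided. CLDN1 averaged 56.4 TPM in A549 and 16.1 TPM in MDA-MB-231 (2.07 ± 0.09) and CLDN2 averaged 12.6 and 0.717 TPM (4.35 ± 0.19). CLDN4 averaged 4.54 TPM in A549 and 52.7 TPM in MDA-MB-231 (-3.28 ± 0.11) and CLDN7 averaged 0.857 and 91.5 TPM (-6.41 ± 0.13). The scaffold gene TJP1 was higher (1.82 ± 0.07). EPCAM, an epithelial surface antigen, averaged 2.69 TPM in A549 and 18.4 TPM in MDA-MB-231 (-2.51 ± 0.12).

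Regulators of epithelial identity were more often lower in A549, with 1 of 9 tested higher, 5 lower and a median of -2.39. ESRP2, which directs epithelial splicing, averaged 0.07 TPM in A549 and 6.94 TPM in MDA-MB-231 (-6.35 ± 0.18). The ETS factor EHF had 2.3, 1.53 and 2.15 TPM in A549 and 135, 135 and 159.8 TPM in MDA-MB-231 (-5.90 ± 0.12), with no overlap. The related ELF3 was the opposite, at 70.7 TPM in A549 and 8.92 TPM in MDA-MB-231 (3.25 ± 0.11). The matriptase inhibitor SPINT1 averaged 0.237 TPM in A549 and 20.9 TPM in MDA-MB-231 (-6.22 ± 0.14).

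Mesenchymal genes were lower in A549 in 15 of 31 tested cases and higher in 6, with a median of -0.95. VIM, the mesenchymal intermediate filament, had 785, 806 and 853 TPM in A549 and 2779, 2811 and 2749 TPM in MDA-MB-231 (-1.51 ± 0.06), so it was abundant in both. Over all 18 libraries the lines overlapped for VIM. Mesenchymal cadherins were divided between the lines. N-cadherin, from CDH2, had 34.2, 32.7 and 35.3 TPM in A549 and 0.27, 0.25 and 0.53 TPM in MDA-MB-231 (6.95 ± 0.15). CDH11, a cadherin of mesenchyme and bone, had 4 counts in all in A549 and 112, 109 and 128 TPM in MDA-MB-231. Collagens were divided in the same way: COL5A2 averaged 99.3 TPM in A549 and 0.437 TPM in MDA-MB-231 (8.08 ± 0.12), while COL6A1, COL6A2 and COL6A3 were lower in A549 (-2.56 ± 0.09, -2.72 ± 0.08 and -7.60 ± 0.12). LOX, the collagen crosslinker, averaged 0.477 TPM in A549 and 99.6 TPM in MDA-MB-231 (-7.59 ± 0.17). TGFBI, a matrix protein induced by TGF-beta, averaged 853 TPM in A549 and 133 TPM in MDA-MB-231 (2.94 ± 0.06). Fibronectin, from FN1, averaged 110.4 TPM in A549 and 255 TPM in MDA-MB-231 and stayed under the threshold (-0.95 ± 0.13). FN1 passed it on TPM plus 1 (-1.24), on TPM plus 0.1 (-1.24) and without A549 replicate 1 or 3 (-1.07 and -1.03).

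The EMT transcription factors went both ways. Of 12 factors 10 were tested, 3 were higher in A549 and 6 were lower, with a median of -1.26. ZEB1, a repressor of CDH1, had 14.2, 12.5 and 13.4 TPM in A549 and 42.4, 42.1 and 52.0 TPM in MDA-MB-231 (-1.50 ± 0.08), without overlap over all 18 libraries. ZEB2 differed by a similar amount (-1.52 ± 0.09), and SNAI2 averaged 0.96 TPM in A549 and 24.5 TPM in MDA-MB-231 (-4.41 ± 0.13). The TWIST genes were found in A549. TWIST1 had 3.09, 3.12 and 2.35 TPM in A549 and 0 counts in MDA-MB-231, at least 23.7-fold higher, and TWIST2 averaged 5.15 TPM in A549 with 1 count in MDA-MB-231. SNAI1 averaged 5.40 TPM in A549 and 3.07 TPM in MDA-MB-231 (1.07 ± 0.15). That call was lost on TPM plus 1 (0.645) and TPM plus 0.1 (0.785) and without A549 replicate 3 (0.961), where SNAI1 stayed under the minimum fold change. The E-box CAGGTG, which ZEB and SNAI factors bind, was searched on both strands of the same promoters. Of the 74 genes on the junction, regulator and keratin lists 37 had a promoter to search. The E-box was in 14 of these, or 37.84%, and in 20.58% of all promoters. Among the list genes it was in 3 of 11 called higher in A549, 2 of 8 called lower and 3 of 10 not called. The other list genes with a promoter were not tested for expression.

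**Figure D4:**
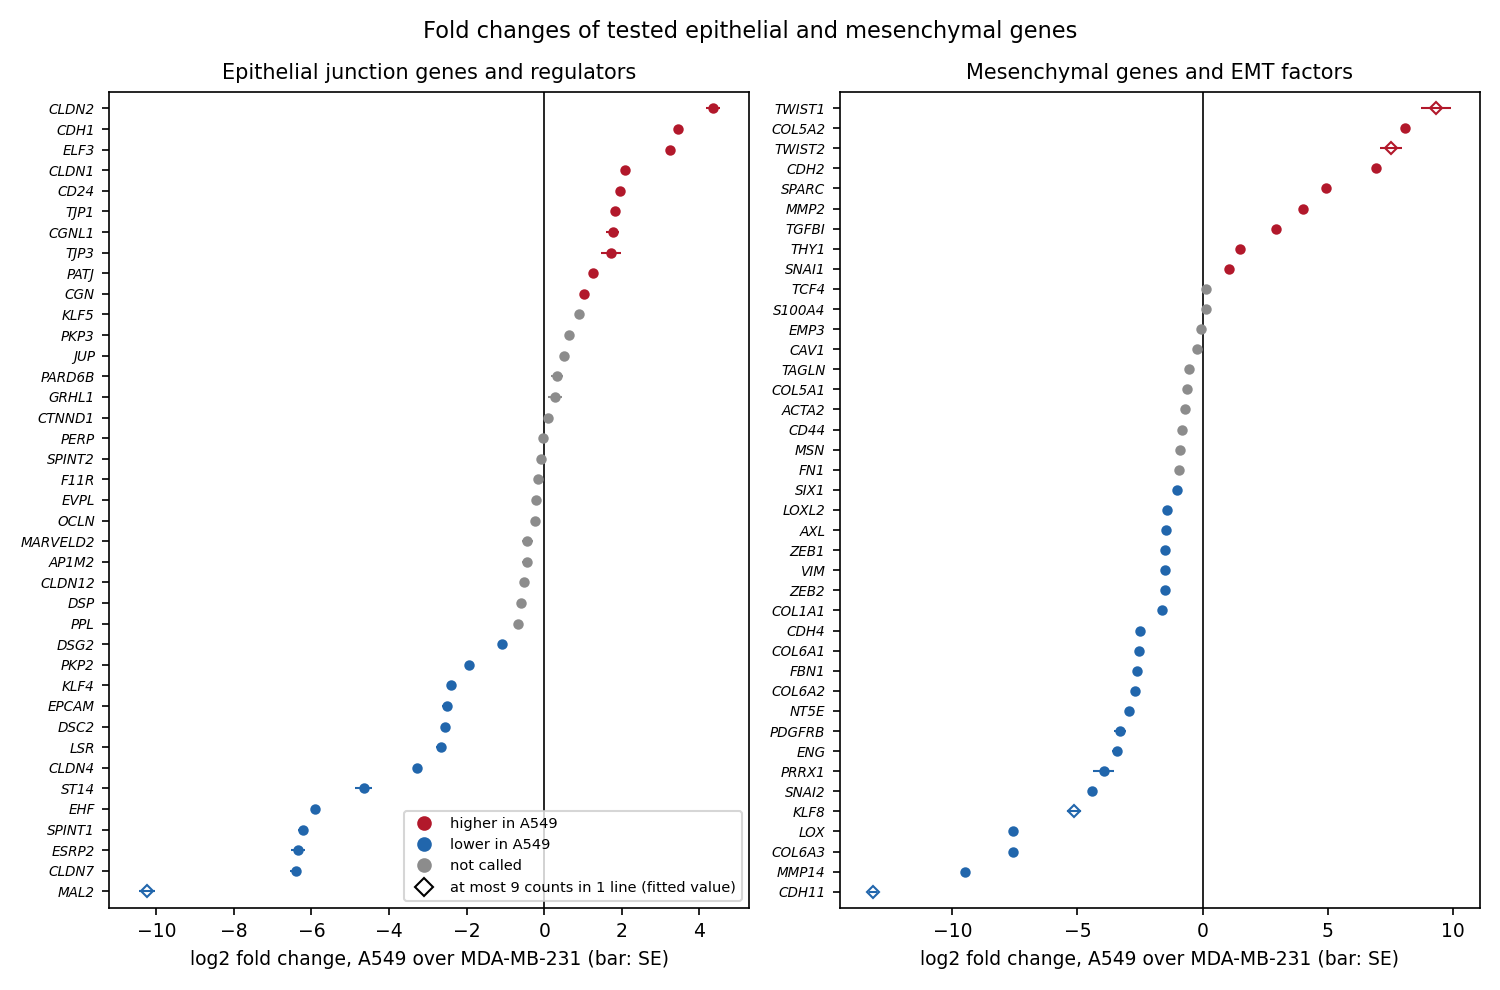
Log2 fold changes (A549 over MDA-MB-231) with standard errors for tested epithelial junction genes and regulators on the left and tested mesenchymal genes and EMT factors on the right; open diamonds mark genes with at most 9 counts in 1 line, whose fitted values depend on the fit. Both panels hold genes on either side of 0, with CDH1 and CLDN7 apart on the left and CDH2 and CDH11 apart on the right.

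Genes of secreted proteases and their inhibitors were mostly lower in A549. Of 36 genes of the protease system 35 were in the files and 29 were tested, 4 were higher in A549 and 21 were lower, with a median of -1.44. Their summed level was 1760 to 1810 TPM in A549 and 11610 to 11940 TPM in MDA-MB-231, and MMP1 and CST1 were the largest parts in MDA-MB-231. CST1, a salivary cystatin that inhibits cysteine proteases, had 4.79, 2.62 and 3.97 TPM in A549 and 1759.8, 1693 and 1677 TPM in MDA-MB-231 (-8.57 ± 0.13). Its near copy CST4 had 1 count in A549 and averaged 726 TPM in MDA-MB-231, and reads between the 2 copies are uncertain. MMP14, the membrane-bound protease that activates MMP2, averaged 0.693 TPM in A549 and 600.4 TPM in MDA-MB-231 (-9.50 ± 0.16). The inhibitor TIMP3 averaged 0.547 TPM in A549 and 681 TPM in MDA-MB-231 (-10.01 ± 0.12), so protease and inhibitor genes were lower in A549 together. Tissue factor, from F3, averaged 2.41 TPM in A549 and 467 TPM in MDA-MB-231 (-7.34 ± 0.09), and the plasminogen activator PLAT averaged 5.55 and 641 TPM (-6.59 ± 0.08). PLAU and its receptor PLAUR differed less (-1.40 ± 0.08 and -2.51 ± 0.09). The proteases on the A549 side included MMP7, the matrilysin of epithelia, at 16.7 TPM in A549 and 0.54 TPM in MDA-MB-231 (5.20 ± 0.21), the gelatinase MMP2 (4.02 ± 0.15) and the lysosomal CTSL (2.01 ± 0.07).

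Cytokines and chemokines were lower in A549 in 20 of 27 tested cases and higher in 3, with a median of -3.26. Their summed level was 670 to 734 TPM in A549 and 3624 to 4334 TPM in MDA-MB-231. IL1B, a primary inflammatory cytokine, had 0.47, 0.67 and 0.39 TPM in A549 and 649, 682 and 875 TPM in MDA-MB-231 (-10.22 ± 0.18, adjusted p 8.36e-14). IL1A, IL6 and CXCL8, which IL-1 signalling induces, were lower with it. IL6 averaged 0.403 TPM in A549 and 55.5 TPM in MDA-MB-231 (-6.82 ± 0.19), and CXCL8 averaged 9.68 and 1161 TPM (-6.66 ± 0.13). The colony-stimulating factors that act on myeloid cells showed the same direction, CSF2 at 0.44 TPM in A549 and 226 TPM in MDA-MB-231 (-8.72 ± 0.16) and CSF1 at 27.0 and 471 TPM (-3.90 ± 0.09). CXCL5, a neutrophil chemokine of the same receptor as CXCL8, was an exception. It had 384, 425 and 444 TPM in A549 and 0.49, 0.42 and 0.70 TPM in MDA-MB-231 (9.84 ± 0.14), with no overlap over all 18 libraries.

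Growth factors and their modulators went both ways, with 12 of 43 tested higher in A549, 18 lower and a median of -0.65. The EGF receptor ligands HBEGF and TGFA and the angiogenic factor VEGFA were lower in A549. HBEGF averaged 3.3 TPM in A549 and 146 TPM in MDA-MB-231 (-5.20 ± 0.08), TGFA 6.27 and 106 TPM (-3.81 ± 0.08) and VEGFA 17.2 and 242 TPM (-3.67 ± 0.08). AREG, another ligand of that receptor, stayed under the threshold (-0.38 ± 0.08), and the receptor EGFR itself averaged 64.6 TPM in A549 and 163 TPM in MDA-MB-231 (-1.08 ± 0.09). EGFR fell short of the minimum fold change without A549 replicate 2 (-0.99) and with all 18 libraries in the fit (-0.985). FGF2 was on the A549 side with 21.2 TPM against 0.113 TPM in MDA-MB-231 (7.80 ± 0.17). The WNT antagonists SFRP1 and DKK1 were too, SFRP1 at 55.4 and 0.46 TPM (7.18 ± 0.15) and DKK1 at 414 and 157 TPM (1.67 ± 0.08). Stanniocalcins exchanged places: STC2 averaged 28.6 TPM in A549 and 0.40 TPM in MDA-MB-231 (6.41 ± 0.13) and STC1 averaged 5.56 and 155 TPM (-4.54 ± 0.11).

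Receptor tyrosine kinase genes were lower in A549 in 12 of 22 tested cases and higher in 4, with a median of -1.09. MET, the receptor of hepatocyte growth factor, averaged 213 TPM in A549 and 123 TPM in MDA-MB-231 (1.03 ± 0.06), a call lost on TPM plus 1 (0.785) and plus 0.1 (0.789). FGFR4, which binds endocrine fibroblast growth factors, averaged 12.3 and 1.22 TPM (3.60 ± 0.16). AXL, a receptor linked to mesenchymal states, averaged 116 TPM in A549 and 368 TPM in MDA-MB-231 (-1.45 ± 0.08), with overlap over all 18 libraries. KDR, the main VEGF receptor of endothelium, had 1 count in A549 and averaged 5.57 TPM in MDA-MB-231. ERBB2 stayed under the threshold at 27.1 and 26.5 TPM (0.26 ± 0.08).

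Matrix and matricellular genes were higher in A549 in 10 of 33 tested cases and lower in 13, with a median of -0.39. The YAP targets CYR61 and CTGF averaged 26.1 and 11.4 TPM in A549 and 644 and 241 TPM in MDA-MB-231 (-4.36 ± 0.08 and -4.14 ± 0.08). Laminin chains exchanged: LAMB1 averaged 229 TPM in A549 and 18.1 TPM in MDA-MB-231 (3.92 ± 0.07), and LAMB3 of laminin-332 averaged 7.25 and 418 TPM (-5.56 ± 0.09). Osteopontin, from SPP1, averaged 114 TPM in A549 and 1.14 TPM in MDA-MB-231 (6.91 ± 0.23), and tenascin C, from TNC, averaged 0.173 and 104 TPM (-8.94 ± 0.13).

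Plasma protein genes, mostly expressed in liver, went both ways. Of 43 genes 19 were tested, 10 were higher in A549 and 7 were lower. The fibrinogen chain gene FGA had 13.8, 8.12 and 10.4 TPM in A549 and 0 counts in MDA-MB-231, at least 132.5-fold higher. FGB and FGG averaged 7.48 and 10.7 TPM in A549 and 0.06 and 0.117 TPM in MDA-MB-231. All 3 chains were lowest in replicate 2 of A549 and still above every MDA-MB-231 library. APOH and AMBP averaged 7.81 and 6.86 TPM in A549 and had 2 counts each in MDA-MB-231. Some protease inhibitor and complement genes were on the other side. SERPINA1, which encodes alpha-1-antitrypsin, averaged 0.057 TPM in A549 and 51.0 TPM in MDA-MB-231 (-9.50 ± 0.16). The complement genes C3 and CFB averaged 19.3 and 2.54 TPM in A549 and 262 and 58.1 TPM in MDA-MB-231 (-3.50 ± 0.11 and -4.25 ± 0.12), whereas C5 averaged 32.5 and 2.52 TPM (3.95 ± 0.11).

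**Figure D5:**
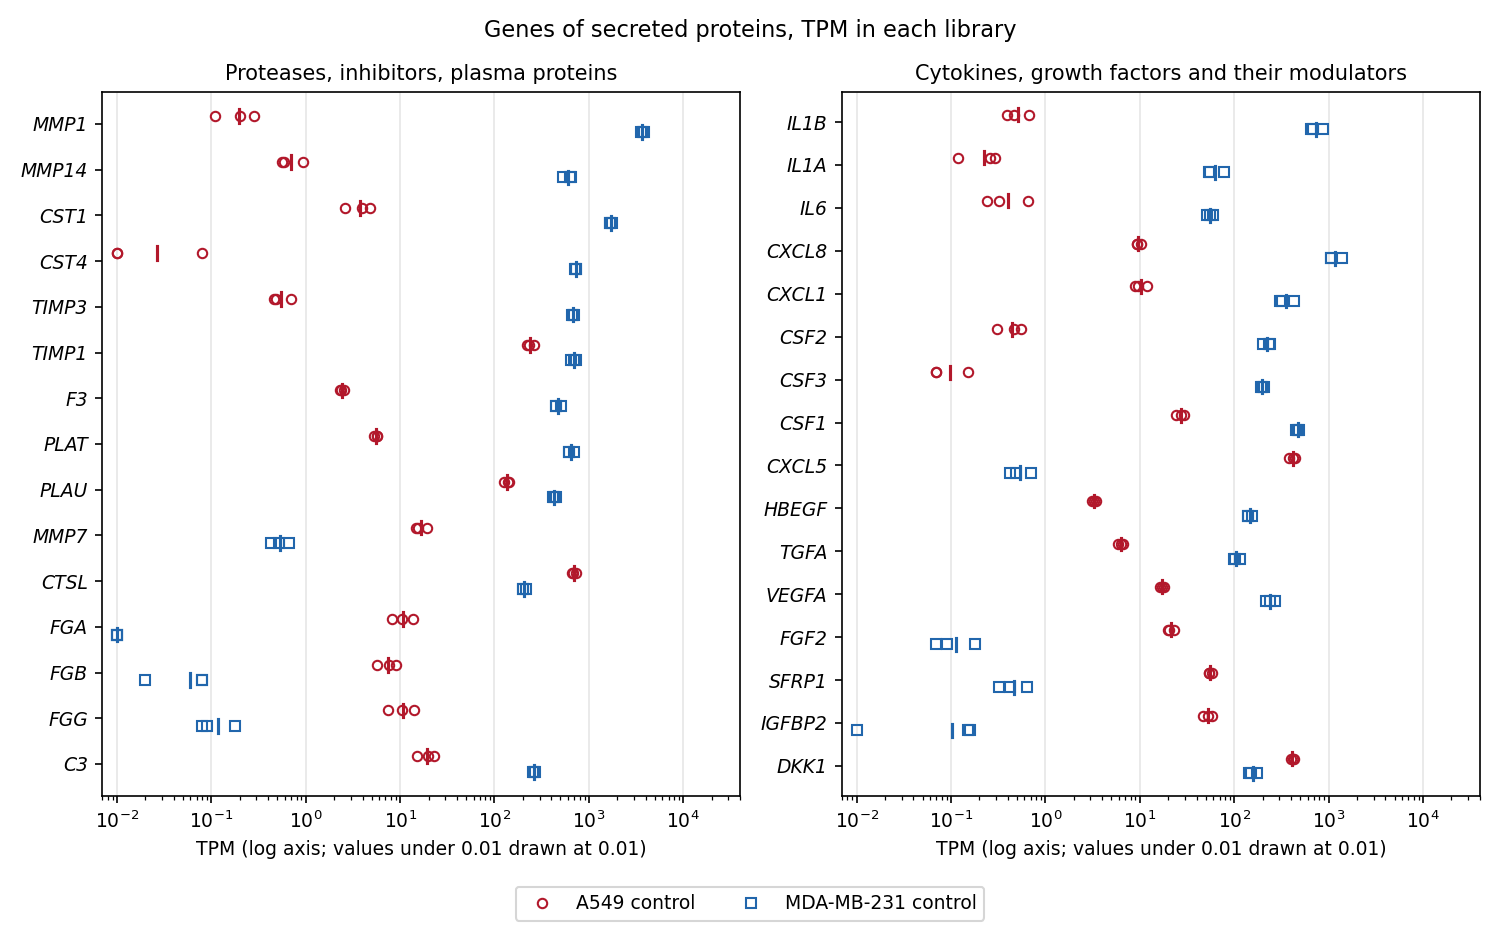
TPM (log axis) of genes for secreted proteins and cell-surface clotting factors in each of the 3 A549 control libraries (circles, upper row of a gene) and the 3 MDA-MB-231 control libraries (squares, lower row); vertical ticks are means and values under 0.01 are drawn at 0.01. Most proteases and cytokines lie to the left in A549, while CXCL5, FGF2, SFRP1, IGFBP2, MMP7 and the fibrinogen genes lie to the right.

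Antigen presentation genes were lower in A549, with 20 of 21 tested called lower, 0 higher and a median of -2.67. In class I, which every nucleated cell uses to display peptides, HLA-B averaged 31.9 TPM in A549 and 563 TPM in MDA-MB-231 (-3.88 ± 0.08) and B2M averaged 617 and 2228 TPM (-1.59 ± 0.07). HLA genes are polymorphic and share sequence with each other, so the values of single HLA genes are uncertain. Class II genes, normally restricted to antigen-presenting cells, were found in MDA-MB-231. HLA-DRA had 0 counts in A549 and 171, 174 and 173 TPM in MDA-MB-231, at least 1172-fold lower in A549. CIITA, the master activator of class II, had 0 counts in A549 and 8.41, 8.79 and 7.62 TPM in MDA-MB-231, at least 208-fold lower. CD74, the invariant chain that escorts class II, averaged 0.763 TPM in A549 and 513 TPM in MDA-MB-231 (-9.12 ± 0.14). CD274, which encodes the checkpoint ligand PD-L1, averaged 2.05 TPM in A549 and 44.3 TPM in MDA-MB-231 (-4.71 ± 0.12).

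Interferon-stimulated and nucleic acid sensing genes were lower in A549 in 19 of 26 tested cases, and 0 were higher, with a median of -3.19. TMEM173, which encodes the DNA-sensing adaptor STING, had 1.72, 1.37 and 1.54 TPM in A549 and 39.5, 37.1 and 38.7 TPM in MDA-MB-231 (-4.36 ± 0.11). Its upstream enzyme CGAS averaged 14.3 TPM in A549 and 43.1 TPM in MDA-MB-231 (-1.33 ± 0.09). ISG15 averaged 11.9 TPM in A549 and 249 TPM in MDA-MB-231 (-4.12 ± 0.15), OAS2 averaged 0.12 and 40.6 TPM (-8.11 ± 0.15) and BST2 averaged 0.767 and 166 TPM (-7.50 ± 0.21). IRF3, which relays the signal from the sensors, was not called and averaged 89.1 TPM in A549 and 78.3 TPM in MDA-MB-231 (0.45 ± 0.09).

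Genes at 0 counts in 1 line numbered 144 for A549 and 92 for MDA-MB-231 among those tested, with XIST and Y-linked genes left out. A count of 0 allows up to 3 counts per library, or 0.0759 CPM in A549 and 0.0926 CPM in MDA-MB-231, for counting error only. In the line that expressed them, 35 of the 144 and 23 of the 92 averaged at least 10 CPM. The silence held in most of the libraries given BLM siRNAs. Of the 144 genes 123 had at most 3 counts in each of the 9 other A549 libraries, and 3 reached 1 CPM in some library. Of the 92 genes 85 had at most 3 counts in each of the 3 other MDA-MB-231 libraries, and 0 reached 1 CPM. PPP1R14A, which encodes an inhibitor of myosin phosphatase, averaged 82.2 TPM in A549 with 0 counts in MDA-MB-231, at least 287-fold higher. NPTX1, a synaptic pentraxin, averaged 71.8 TPM in A549 with 0 counts in MDA-MB-231, at least 2192-fold higher, and the neurofilament gene INA averaged 18.8 TPM, at least 333-fold higher. On the MDA-MB-231 side, besides ADGRF5 and the class II genes, COL8A1 of short-chain collagen averaged 33.7 TPM with 0 counts in A549, at least 595-fold lower. FBP1, which runs gluconeogenesis, averaged 32.8 TPM in MDA-MB-231 and was at least 267-fold lower in A549.

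Some silent genes were neighbours in the genome. Protein-coding genes were placed in RefSeq order, with chromosome Y left out. MDA-MB-231 had a run of 20 neighbouring genes at 0 counts on chromosome 9, reaching from HACD4 to CDKN2A. Of these 4 passed the filter through their expression in A549, namely HACD4, KLHL9, IFNE and MTAP. The rest of the run did not reach the level for testing in either line, so the length of the run says little. KLHL9, a ubiquitin ligase adaptor, had 24.5, 22.6 and 24.4 TPM in A549 and was at least 773-fold higher there. MTAP, which salvages methionine from polyamine synthesis, had 3.73, 3.41 and 3.40 TPM in A549 and was at least 96.8-fold higher. The tumour suppressor genes CDKN2A and CDKN2B had 1 and 0 counts in all in A549 and 0 and 1 in MDA-MB-231. CDKN2B, with its 1 count, is thus not part of the run. DMRTA1, of the same region but outside the run, averaged 2.42 TPM in A549 with 0 counts in MDA-MB-231, at least 29.9-fold higher. CDKN2B-AS1 had 0 counts in both lines. FOCAD, at the edge of that region, was low but not silent, at 24.7 TPM in A549 and 1.64 TPM in MDA-MB-231 (4.17 ± 0.11), and MLLT3 beyond it averaged 8.44 and 7.59 TPM (0.42 ± 0.10). MDA-MB-231 had 1 other run of at least 3 tested genes, in the HOXA cluster. A549 had 4 such runs, 1 of class II genes on chromosome 6 and 3 of zinc finger genes on chromosome 19. Loss of DNA and silencing of an intact gene give the same 0 here, and which applied was not tested.

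Cell division genes were close between the lines. Of 30 G2/M and mitosis genes, all tested, 0 were higher in A549 and 2 were lower, with a median of -0.22. These were the kinetochore gene NDC80, at 26.6 TPM in A549 and 143 TPM in MDA-MB-231 (-2.16 ± 0.10), and the kinesin KIF2C, at 66.5 and 177 TPM (-1.15 ± 0.08).

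Markers of other cell types were checked because a culture can hold them. The leukocyte genes PTPRC, CD3E and CD3D had 0 counts in A549 and averaged 0.0733, 0.0333 and 0.617 TPM in MDA-MB-231. Of 14 leukocyte markers 6 were tested, 1 was higher in A549 and 4 were lower, and their sum was 26.0 to 31.6 TPM in A549 and 252.9 to 281.7 TPM in MDA-MB-231. Most of it was CD68, a lysosomal gene that many cells express, at 21.6 and 252 TPM. Among the other tested markers, ITGAM had 307 counts in all in A549 and 4 in MDA-MB-231. CSF1R had 6 and 444 counts and LYZ had 1 and 187, in the same order. Of 8 endothelial markers 4 were tested, all lower in A549 with a median of -8.17, with a sum of 12.98 to 14.93 TPM in A549 and 333 to 351 TPM in MDA-MB-231, nearly all of it ESAM at 13.5 and 326 TPM. The other 3 tested markers were the endothelial receptor genes KDR and TIE1 and the adhesion gene PECAM1. KDR averaged 0.0033 TPM in A549 and 5.57 TPM in MDA-MB-231, TIE1 averaged 0.013 and 8.56 TPM, and PECAM1 averaged 0.017 and 3.88 TPM. The defining endothelial genes VWF and CDH5 were not tested and were at most 0.01 TPM in A549 and 0.14 TPM in MDA-MB-231 on average. Of 8 fibroblast markers 2 were tested and both were lower in A549, with DCN, a defining fibroblast gene, at 0 counts in A549 and sums of 1.79 to 1.90 TPM in A549 and 7.07 to 7.70 TPM in MDA-MB-231. The part of other cells in the results was not tested beyond these values.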

How the data were processed

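RNA was measured in 18 libraries of A549 and MDA-MB-231 cells, of which the 6 control siRNA libraries were compared. The authors deposited, per gene and library, RSEM's expected count, as the file headers name it, which is an estimate and need not be whole. RSEM and hg19 come from the submitters' processing notes. Neither the aligner nor the annotation release nor strand use is given in the sources. Levels are TPM as deposited by the authors, which account for gene length and library total. In control libraries 10.6% to 11.3% of the 27968 genes had an expected count that was not whole, since RSEM divides reads between similar transcripts. That share includes genes without a count, while 18180 to 19014 genes per control library had a count. Genes with near-identical copies are therefore uncertain.

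Expected counts were rounded and tested in R 4.3.3 by the quasi-likelihood F test (edgeR 4.0.16), after TMM scaling and without covariates, on genes with at least 1 CPM in 3 of the 6 libraries. Of the 27968 genes 13822 were not tested. At the edge of the filter, the third highest library was at 1.0013 CPM for HSD17B6 and GRAMD2A, inside, and at 0.99525 CPM for ADAMTS5 and GRIN2A, outside. Calls needed a Benjamini-Hochberg adjusted p under 0.05 and a log2 fold change of at least 1 in size. Genes at 0 counts in a line are given as bounds against 3 counts per library, and ratios with few counts carry exact Clopper-Pearson 95% intervals on summed counts, which cover counting error only. The fit was tested on simulated data. The genes, lists and tests were chosen with earlier results of these data known. Named genes were list members with the largest changes, the 12 highest and 12 lowest fold changes with at least 10 CPM in the higher line, the 12 most abundant genes at 0 in the other line, and the 10 most abundant called genes of each line. Up to 8 members were meant per list, and further members were named after their values were seen. XIST, Y-linked genes and some other list members are not reported here. No coordinates of the files are printed, and RefSeq (GRCh38.p14) gave promoters and gene order. Alternatives were limma 3.58.1, DESeq2 1.42.0, other scalings, filters, pseudocounts, fits and left-out libraries.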

Additional observations from a re-analysis of the deposited data

How the results depend on the processing

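Counts of genes called higher and lower in A549 stayed within 1.5 times their value under the scalings, tests, filters and fits tried, except on TPM plus 1 and at a higher minimum fold change. With limma on log2 of TPM plus 1, 1521 genes were higher and 3253 lower, so 31.86% of calls were higher in place of 45.25%, and with TPM plus 0.1 it was 1885 and 3711 (33.68%). On these scales the median of all genes was -0.23 and -0.25. A minimum log2 fold change of 2 left 1071 higher and 1644 lower. Without a filter on low counts the counts were 3522 and 4479. Leaving out 1 library at a time gave 2506 to 2562 higher, 3030 to 3091 lower and 11378 to 11956 genes with an adjusted p under 0.05. The libraries share replicate numbers across the lines, but same-numbered libraries did not deviate together (correlations -0.018, 0.043 and -0.082). A replicate block in the fit gave 2524 higher, 3049 lower and 11534 had an adjusted p under 0.05. Of 249 genes checked 236 had the same call by adjusted p and fold change under every alternative. Of the 13 others, 8 were called (AGR2, ANXA2, EGFR, LGALS1, MET, SNAI1, SQSTM1 and TXN) and fell under the minimum fold change in some fit, and 5 were not called (CD44, FN1, MUC5AC, NFE2L1 and OAS1) and passed it in some fit. By adjusted p and sign alone 240 stayed as they were. ERBB2, CUL3, MDM2, MLLT3 and IRF3 did not pass on TPM, CAV1 and HHIP with all 18 libraries in the fit (-0.118 and -0.32), and KEAP1 with 1 library left out, upper quartile factors, voom, the replicate block or all 18 libraries. NFE2L2 turned to -0.144 and -0.146 on TPM plus 1 and plus 0.1, and passed with a positive sign with upper quartile factors (0.172), with all 18 libraries (0.217) and without MDA-MB-231 replicate 3 (0.153). With the silence limit raised to 3 counts per library, 360 genes were silent in A549 and 270 in MDA-MB-231, XIST and Y-linked genes again left out. Summed levels on CPM in place of TPM gave ratios of A549 over MDA-MB-231 of 5.64 in place of 4.26 for detoxification genes, 0.168 in place of 0.151 for the protease system, 0.258 in place of 0.183 for cytokines and 0.196 in place of 0.179 for antigen presentation. The cause of these shifts was not tested. Depth limits the silent genes: at 0 counts, levels under 0.0759 CPM in A549 and 0.0926 CPM in MDA-MB-231 cannot be told from 0.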

Other observations

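Zinc finger genes of chromosome 19 were low in A549, a group chosen after its values were seen and therefore described without a test. These genes mostly encode KRAB repressors that silence transposable elements. Of 228 tested genes whose symbol begins with ZNF on chromosome 19, 124 were lower in A549 and 9 were higher, which is 54.39% and 3.95%, with a median log2 fold change of -1.17. Among the 242 tested ZNF genes of other chromosomes 42 were lower and 27 higher, which is 17.36% and 11.16%, with a median of -0.11. Among the 734 other tested genes of chromosome 19, 188 were lower and 148 higher, or 25.61% and 20.16%, with a median of -0.12. On chromosome 19, 24 ZNF genes had 0 counts in all 3 A549 control libraries and 0 did so in the MDA-MB-231 control libraries. Of these 24, 8 had 0 counts in all 12 A549 libraries. ZNF320 and ZNF347 had 0 counts in A549 control libraries and averaged 16.9 and 17.7 TPM in MDA-MB-231, at least 621-fold and 452.5-fold lower in A549. Many of these genes share sequence, so the division of reads among them is uncertain.

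Cancer-testis genes, which are silent in most adult tissues, were expressed in different sets by the lines. Of 29 genes 10 were tested, 3 were higher in A549 and 6 were lower. MAGEA6 averaged 55.7 TPM in A549 and 2.15 TPM in MDA-MB-231 (4.96 ± 0.13), and SPANXB1 averaged 3.85 and 1370 TPM (-8.22 ± 0.14), both with near-identical copies that share reads. Over all 18 libraries, BLM siRNAs included, 4268 of the 5576 called genes (76.54%) and 6126 of the 14146 tested genes (43.31%) did not overlap between the 12 A549 and the 6 MDA-MB-231 libraries.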
